A study of Rattus norvegicus with 8 samples.

Results

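The carnitine shuttle genes and the malonyl-CoA decarboxylase gene were described as a set of 9 genes, chosen by name from the 32258 features of the count table: Cpt1a, Cpt1b, Cpt1c, Cpt2, Crat, Crot, Slc25a20, Slc22a5 and Mlycd. All 9 were found by their exact names and all 9 had enough reads to be tested. RNA came from H9C2 cells, a cardiomyoblast line derived from embryonic rat heart, transduced for 2 days with a pDC316 vector. The groups, of 2 libraries each, expressed YFP-PPARα with the phospho-mimicking change S280D, YFP-PPARα with the phospho-resistant change S280A, wild-type YFP-PPARα (WT), or YFP alone. All 4 groups therefore carried the vector and YFP, and differed in the added PPARα, a nuclear receptor that switches on genes of fatty acid use: absent, wild-type or changed at serine 280. The labels do not tell whether both libraries of 1 group stem from different dishes, and the p-values measure the spread between these libraries, which may be technical.

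Long-chain fatty acids enter the mitochondrial matrix for oxidation as carnitine esters. Carnitine palmitoyltransferase 1 on the outer membrane, encoded by Cpt1a and Cpt1b, makes the ester. Slc25a20, the carnitine/acylcarnitine carrier of the inner membrane, exchanges it for free carnitine, and Cpt2 returns the acyl group to coenzyme A inside. Malonyl-CoA inhibits carnitine palmitoyltransferase 1, and Mlycd, malonyl-CoA decarboxylase, breaks malonyl-CoA down. Cpt1b is the main form of heart and skeletal muscle, Cpt1a that of liver and of the fetal heart, and several genes of this set are known PPARα targets in rodents.

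Promoter sequences are shown for 4 of the genes, because Cpt1a and Crot had higher reads and Slc25a20 and Mlycd lower reads in S280D cells than in YFP cells, as described further on. Each line gives the 250 bases before the start of the gene in RefSeq's GRCr8 assembly, 5′ to 3′ on the strand of the gene. They lie at chr1:209995910-209996159 (+ strand), chr4:26052874-26053123 (+ strand), chr8:118243323-118243572 (+ strand) and chr19:64356332-64356581 (+ strand). Capitals mark each GGGCGG or CCAAT and its reverse complement.
Cpt1a: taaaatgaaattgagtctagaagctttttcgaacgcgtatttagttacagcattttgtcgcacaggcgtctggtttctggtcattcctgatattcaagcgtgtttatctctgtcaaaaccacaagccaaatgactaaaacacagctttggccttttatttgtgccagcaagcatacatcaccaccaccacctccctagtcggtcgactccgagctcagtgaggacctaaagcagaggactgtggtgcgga
Crot: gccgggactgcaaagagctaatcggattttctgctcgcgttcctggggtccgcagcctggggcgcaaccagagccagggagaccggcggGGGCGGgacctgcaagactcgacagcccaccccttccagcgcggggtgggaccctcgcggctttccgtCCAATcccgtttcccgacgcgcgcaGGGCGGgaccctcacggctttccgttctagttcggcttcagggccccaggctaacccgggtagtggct
Slc25a20: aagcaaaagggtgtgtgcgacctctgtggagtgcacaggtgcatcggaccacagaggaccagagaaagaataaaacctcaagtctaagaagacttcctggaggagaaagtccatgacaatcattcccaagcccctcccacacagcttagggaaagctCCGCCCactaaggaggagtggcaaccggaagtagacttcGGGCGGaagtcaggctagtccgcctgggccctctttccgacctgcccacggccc
Mlycd: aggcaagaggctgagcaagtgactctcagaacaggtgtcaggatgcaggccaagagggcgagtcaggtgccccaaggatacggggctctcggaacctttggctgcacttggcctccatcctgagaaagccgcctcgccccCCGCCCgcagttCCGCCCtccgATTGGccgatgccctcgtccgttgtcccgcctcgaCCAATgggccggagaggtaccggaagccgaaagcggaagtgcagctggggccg

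Of the 9 genes, 7 had a promoter in the RefSeq table; Cpt1b and Cpt1c were not matched. AGGTCA, the half-site of nuclear receptors, was searched on both strands and was in 0 of the 7 windows, against 14.1% of all 33469 promoters of the same length. The direct repeats AGGTCANAGGTCA, which holds the half-site and was in 0.0508% of all promoters, and AGGNCANAGGNCA, which includes it and was in 0.368%, were in 0 of the 7 as well. No match says only that these letters are not in this window. GGGCGG was in 6 of the 7 windows, against 30.5% of all promoters, and Cpt1a was the one without it. The promoters of this background were not limited to genes tested here, while all 7 of these genes were tested. No difference in share was tested. CCAAT was in 2 of the 7, Crot and Mlycd, against 34.0% of all promoters. GC content was 45.6% in the Cpt1a window, 68.0% in that of Crot, 56.4% in that of Slc25a20 and 65.2% in that of Mlycd, beside a median of 51.2% over all promoters. Among the windows shown, the genes that were higher and those that were lower did not separate by these letters, but so few windows cannot decide this. The Cpt1a model in the count table spans 60169 bases, against 62449 bases for the gene in GRCr8. Whether the start used for the window is that of the counted model was not tested.

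The libraries held 14018785 to 39526013 exon reads, and 12407 genes were tested. Both S280D libraries were deeper than the libraries of the other groups, and the first was the deepest. The added receptor was visible in every construct library: Ppara stood at 59.5 to 74.4 CPM (library-size-scaled counts, with TMM factors) in YFP cells and at 12382 CPM or more in each other library. The first principal component, 56.4% of the variance, put the WT and S280D libraries on one side and the S280A and YFP libraries on the other. Sequencing lanes, as the headers name them, were 1 for the first and 2 for the second S280D library, 2 for the first and 1 for the second S280A library, 2 for both WT libraries and 1 for both YFP libraries. No lane holds both WT and YFP libraries, so that WT against YFP has no within-lane value, and a lane term in the model is estimated from the other groups. Of 10 cardiomyocyte markers, 7 averaged under 1 CPM and Nkx2-5 was at 0 in all but 1 library, while Tnnt2 was at 129 to 265 CPM. Skeletal myoblast markers averaged under 1 CPM in 7 of 7. The summed level of 6 fibroblast markers was 44130 to 47882 CPM in S280D, 55123 to 64285 CPM in S280A, 38727 to 44777 CPM in WT and 56983 to 65658 CPM in YFP libraries. That sum is mostly Col1a1 and Col1a2, which were lower in each S280D and WT library than in each S280A and YFP library, and their part in the results below was not tested. Other markers of the list did not follow: Dcn was at 29.5 and 28.4 CPM in S280D libraries and at most 26.0 CPM in the rest, and Col3a1, at 5139 and 5595 CPM in S280D, overlapped S280A, at 5253 and 5068 CPM. Of the other cell types, macrophage markers summed to at most 1.31 CPM with Ptprc at 0, endothelial markers to at most 1.35 CPM, and epithelial markers to at most 0.117 CPM with Krt19 at 0.

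Per kilobase of exon, the carrier Slc25a20 was the most abundant of the 9 transcripts, with a mean level of 28.2 CPM per kilobase over the 8 libraries, followed by Crat at 24.2 and Mlycd at 10.7. In S280A cells the first 2 were the other way round, with Crat at 31.4 and Slc25a20 at 29.9 CPM per kilobase. Cpt1c at 5.54, Cpt1a at 5.35, Cpt2 at 4.73 and Crot at 4.53 CPM per kilobase lay close together, and their order differed between groups. Cpt1b, the muscle form, was at 1.86 CPM per kilobase, below both other forms in each group, and Slc22a5 was lowest at 0.756 CPM per kilobase. In Rnor_6.0 as the table gives it, Cpt1a spans chr1:218569510-218629678, Cpt1b chr7:130395194-130405347, Cpt1c chr1:100955095-100969560, Cpt2 chr5:127505614-127523089 and Crat chr3:8968417-8981362. Crot spans chr4:22081604-22116265, Slc25a20 chr8:117455262-117476734, Slc22a5 chr10:39201107-39323853 and Mlycd chr19:52032886-52048753, and reads over the annotated exons were counted. The reads behind a single value ranged from 50, for Slc22a5, to 1786, for Crat.

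**Figure D1:**
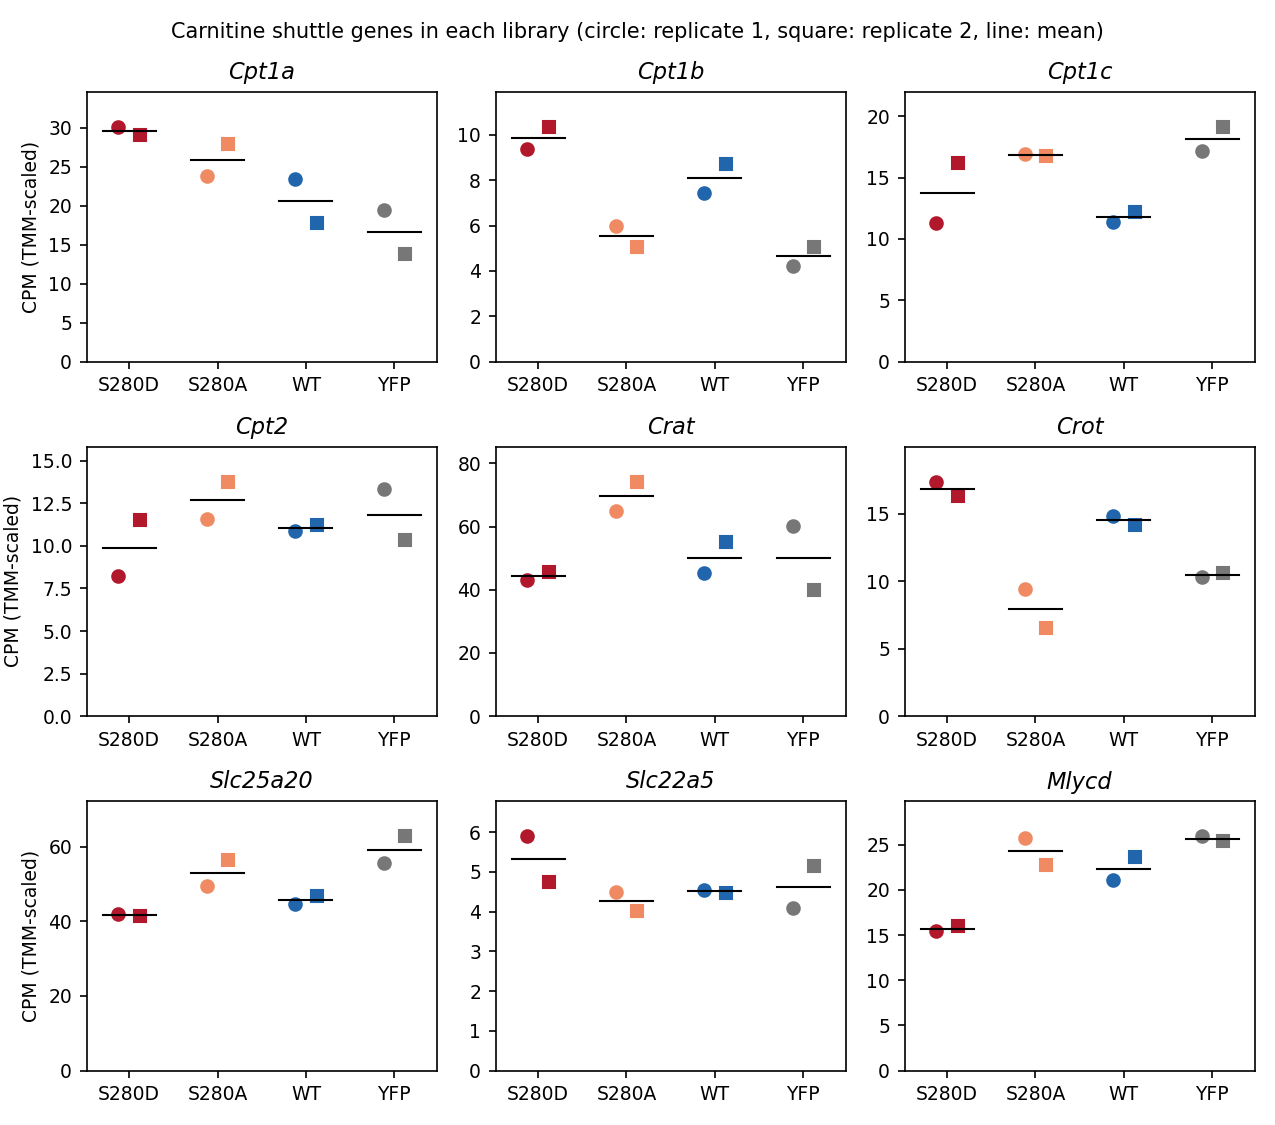
Level of each of the 9 genes in each library, in CPM scaled by TMM (y axis, from 0), by group (x axis); circles are replicate 1, squares replicate 2 and lines the group mean. Cpt1a, Cpt1b and Crot stand higher, and Slc25a20 and Mlycd lower, in both S280D libraries than in both YFP libraries.

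Over all 6 comparisons, 7 of the 9 genes passed edgeR's quasi-likelihood test at a Benjamini-Hochberg adjusted p under 0.05 at least once, and Cpt2 and Slc22a5 did not. Of all genes tested, 49.2% passed at least once. The calls were not in 1 direction: the acyltransferase genes Cpt1a, Cpt1b and Crot were higher in S280D than in YFP cells, while Slc25a20 and Mlycd were lower. In bulk RNA, fewer cells expressing a gene and less RNA per cell cannot be told apart.

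Cpt1a reached 30.1 and 29.1 CPM in S280D cells, 23.9 and 27.9 CPM in S280A cells and 23.4 and 17.8 CPM in WT cells, against 19.4 and 13.8 CPM in YFP cells. Both S280D libraries were above every other library, and both S280A libraries were above the YFP libraries, while WT and YFP overlapped. In S280D against YFP the log2 fold change was 0.84 ± 0.19 (SE; edgeR adjusted p = 0.00988). Against YFP, S280A stood at 0.64 ± 0.20 (adjusted p = 0.332) and WT at 0.31 ± 0.20 (adjusted p = 0.279), neither of which passed; leaving out 1 library moved S280A over 0.41 to 0.90 and WT over 0.083 to 0.58. Nor did S280D against S280A, at 0.20 ± 0.19 (adjusted p = 0.443), so no difference between the mutants in this gene was detected. Without S280D replicate 1, S280D against YFP stayed at 0.83 with an adjusted p of 0.0658. With a correction for exon length it was 0.57, or 0.70 relative to the median of all genes, with an adjusted p of 0.0507.

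Cpt1b was the gene of the set with the largest change against YFP. It was at 9.36 and 10.3 CPM in S280D cells, 5.97 and 5.07 CPM in S280A cells and 7.45 and 8.70 CPM in WT cells, against 4.22 and 5.06 CPM in YFP cells. The S280D libraries lay above the WT libraries, and these above those of S280A and YFP, which nearly met. S280D against YFP gave 1.08 ± 0.21 on the log2 scale (edgeR adjusted p = 0.00427), a 2.11-fold level. WT against YFP gave 0.79 ± 0.21 (adjusted p = 0.0258), and S280A against YFP 0.25 ± 0.22 (adjusted p = 0.674). The mutants differed directly, S280D against S280A by 0.83 ± 0.21 (adjusted p = 0.011). S280D against WT did not pass, at 0.29 ± 0.20 (adjusted p = 0.948). The call in WT was lost without WT replicate 1 (adjusted p = 0.109), WT replicate 2 (0.135) or YFP replicate 1 (0.129), and with lane in the model (0.61 on the log2 scale, adjusted p = 0.372). The call between the mutants was lost without S280A replicate 2 (0.0881), S280D replicate 1 (0.0507) or S280D replicate 2 (0.0531). Of the exon reads of Cpt1b, 86.0% mapped uniquely, and the gene's span overlaps by 516 bases that of Chkb, the choline kinase beta gene; Chkb, at 12.8 and 11.7 CPM in S280D against 15.2 and 18.4 CPM in S280A cells, did not pass in any comparison.

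Cpt1c, the brain-type isoform, went the other way. It was at 11.3 and 16.2 CPM in S280D cells, 16.9 and 16.7 CPM in S280A cells and 11.3 and 12.2 CPM in WT cells, against 17.2 and 19.1 CPM in YFP cells. Both WT libraries were below the YFP and S280A libraries, and the S280D libraries were spread over a range that reached from the WT level nearly to the S280A level. WT against YFP was called, at -0.63 ± 0.19 (edgeR adjusted p = 0.0413), and S280D against YFP was not, at -0.41 ± 0.19 (adjusted p = 0.117). The WT call was lost without any 1 of the 4 libraries compared (adjusted p = 0.237 without WT replicate 1, 0.119 without WT replicate 2, 0.0885 without YFP replicate 1 and 0.118 without YFP replicate 2) and with lane in the model (0.155). S280D against YFP turned on which S280D library was kept, at -0.15 (adjusted p = 0.707) without replicate 1 and -0.68 (0.0448) without replicate 2; it also passed with the exon length correction (0.0459).

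The 3 carnitine palmitoyltransferase 1 transcripts were also summed per length. This sum was chosen after the values were seen and is given without a test. The 3 genes together came to 13.6 and 15.4 CPM per kilobase in S280D cells, 13.3 and 13.9 in S280A cells, 11.5 and 10.9 in WT cells and 11.9 and 11.5 in YFP cells. Cpt1c made up 30.5% and 38.5% of that sum in S280D cells, 46.6% and 44.1% in S280A cells, 36.0% and 41.0% in WT cells, and 52.8% and 60.7% in YFP cells. Cpt1b made up 18.2% and 17.8% in S280D cells, 11.9% and 9.63% in S280A cells, 17.1% and 21.2% in WT cells, and 9.37% and 11.6% in YFP cells. Cpt1c thus held the largest share in both YFP libraries and Cpt1a in both S280D libraries. Between S280D and WT the total differed, at 14.5 ± 1.28 in S280D and 11.2 ± 0.476 CPM per kilobase in WT cells (SD, n = 2 each), while the Cpt1c and Cpt1b shares overlapped.

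**Figure D2:**
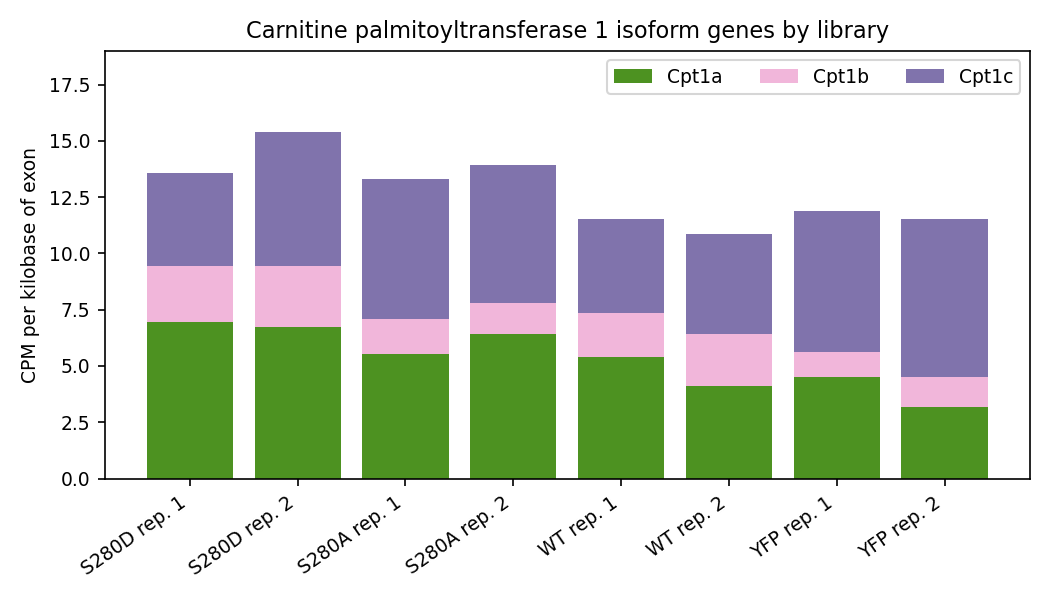
Levels of Cpt1a, Cpt1b and Cpt1c in CPM per kilobase of exon (y axis), stacked for each of the 8 libraries (x axis). The Cpt1c part is the largest in both YFP libraries (52.8% and 60.7%) and the Cpt1a part in both S280D libraries (51.2% and 43.7%).

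Crot, the peroxisomal carnitine octanoyltransferase that makes medium-chain acylcarnitines from the products of peroxisomal oxidation, gave the largest difference between the mutants. It was at 17.4 and 16.3 CPM in S280D cells, 9.41 and 6.52 CPM in S280A cells and 14.8 and 14.2 CPM in WT cells, against 10.3 and 10.6 CPM in YFP cells. S280D lay highest, then WT, then YFP, then S280A, and no group overlapped another. The Crot model in the count table spans 34662 bases, against 56329 bases for the gene in GRCr8, from which the promoter was taken. S280D against S280A gave 1.07 ± 0.19 on the log2 scale (edgeR adjusted p = 0.00285), S280D against YFP 0.69 ± 0.19 (adjusted p = 0.0189), and S280A against WT -0.86 ± 0.20 (adjusted p = 0.0135). WT against YFP did not pass, at 0.47 ± 0.19 (adjusted p = 0.099), nor did S280A against YFP, at -0.39 ± 0.20 (adjusted p = 0.475). The call between the mutants held without any 1 library and with lane in the model. S280D against YFP was lost without S280D replicate 1 (adjusted p = 0.123), S280D replicate 2 (0.0527) or YFP replicate 1 (0.0841) and with lane (0.0886); S280A against WT was lost without WT replicate 1 (0.11), WT replicate 2 (0.051) or S280A replicate 2 (0.134) and with lane (0.0588).

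Crat, carnitine acetyltransferase, which buffers acetyl-CoA as acetylcarnitine, was highest in S280A cells. Its level was 43.2 and 45.5 CPM in S280D cells, 65.0 and 74.2 CPM in S280A cells and 45.2 and 55.1 CPM in WT cells, against 60.1 and 39.8 CPM in YFP cells. Both S280A libraries were above every other library, and the YFP libraries lay farther apart than those of any other group. S280D against S280A was the only comparison in which Crat was called, at -0.65 ± 0.18 (edgeR adjusted p = 0.0173). That call was lost without S280A replicate 2 or without S280D replicate 1 (adjusted p = 0.119 each). S280A against WT, at 0.47 ± 0.18 (adjusted p = 0.0766), missed the threshold, and passed without YFP replicate 1 (0.0267) or YFP replicate 2 (0.0257).

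Cpt2, the inner membrane partner, was at 8.22 and 11.5 CPM in S280D cells, 11.6 and 13.8 CPM in S280A cells and 10.8 and 11.2 CPM in WT cells, against 13.4 and 10.3 CPM in YFP cells. YFP overlapped each other group. Its lowest adjusted p was 0.189, in S280D against S280A at -0.37 ± 0.21, where the libraries did not overlap. Leaving out 1 library moved that value over -0.62 to -0.12, the ends being without S280D replicate 2 and without S280D replicate 1.

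Slc25a20 was at 41.9 and 41.4 CPM in S280D cells, 49.5 and 56.5 CPM in S280A cells and 44.6 and 46.8 CPM in WT cells, against 55.6 and 62.8 CPM in YFP cells. Both S280D libraries were the lowest of the 8, followed by both WT libraries. S280D against YFP was called at -0.51 ± 0.13 (edgeR adjusted p = 0.0127) and S280D against S280A at -0.35 ± 0.13 (adjusted p = 0.0477), while WT against YFP, at -0.37 ± 0.13 (adjusted p = 0.0575), missed the threshold. The call between the mutants was lost without WT replicate 1 (adjusted p = 0.082), WT replicate 2 (0.0717), S280A replicate 2 (0.232), S280D replicate 1 (0.206) or S280D replicate 2 (0.154), with lane (0.0804) and in DESeq2 (0.0713). S280D against YFP was lost without S280D replicate 1 (0.105), S280D replicate 2 (0.06) or YFP replicate 2 (0.0513) and with lane (0.079), and WT against YFP passed without S280A replicate 1 (0.0474) or S280A replicate 2 (0.0427).

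Slc22a5, the plasma membrane carnitine transporter, was at 5.90 and 4.74 CPM in S280D cells, 4.49 and 4.03 CPM in S280A cells and 4.55 and 4.47 CPM in WT cells, against 4.10 and 5.16 CPM in YFP cells. YFP overlapped each other group. Its largest difference was S280D against S280A, at 0.33 ± 0.24 (edgeR adjusted p = 0.306). The gene model in the table spans 122747 bases, 4.52 times the length of the gene in GRCr8, and 96.6% of the reads within it fell in introns. Those intron reads stood at 192 and 154 CPM in S280D cells, 88.4 and 52.3 CPM in S280A cells, 203 and 152 CPM in WT cells, and 60.9 and 88.8 CPM in YFP cells. They put both S280D and both WT libraries above all S280A and YFP libraries, which the exon reads did not; 54.9% of them mapped uniquely, and whether they come from Slc22a5 was not tested.

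Mlycd fell in S280D cells. It was at 15.4 and 16.0 CPM in S280D cells, 25.8 and 22.8 CPM in S280A cells and 21.04 and 23.7 CPM in WT cells, against 25.9 and 25.4 CPM in YFP cells. Both S280D libraries were below all 6 others, and S280A overlapped WT and YFP. S280D against YFP gave -0.71 ± 0.15 on the log2 scale (edgeR adjusted p = 0.00599) and S280D against S280A -0.63 ± 0.15 (adjusted p = 0.00835). S280D against WT, at -0.51 ± 0.15, had an unadjusted p of 0.00501 and an adjusted p of 0.623. Without S280D replicate 1 the adjusted p was 0.07 against YFP and 0.0821 against S280A.

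Set side by side, the genes moved apart within single libraries. These ratios were also chosen after the values were seen and carry no test. The summed level of Cpt1a and Cpt1b per kilobase, divided by that of Mlycd, was 1.26 and 1.22 in S280D cells, 0.566 and 0.702 in S280A cells, 0.720 and 0.556 in WT cells, and 0.444 and 0.366 in YFP cells. Both S280D libraries stood well above the rest, and S280A and WT overlapped. The ratio of Crot to Crat was 0.324 and 0.289 in S280D cells, 0.117 and 0.0709 in S280A cells, 0.264 and 0.208 in WT cells, and 0.138 and 0.215 in YFP cells. Here S280A was lowest, and WT and YFP overlapped.

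**Figure D3:**
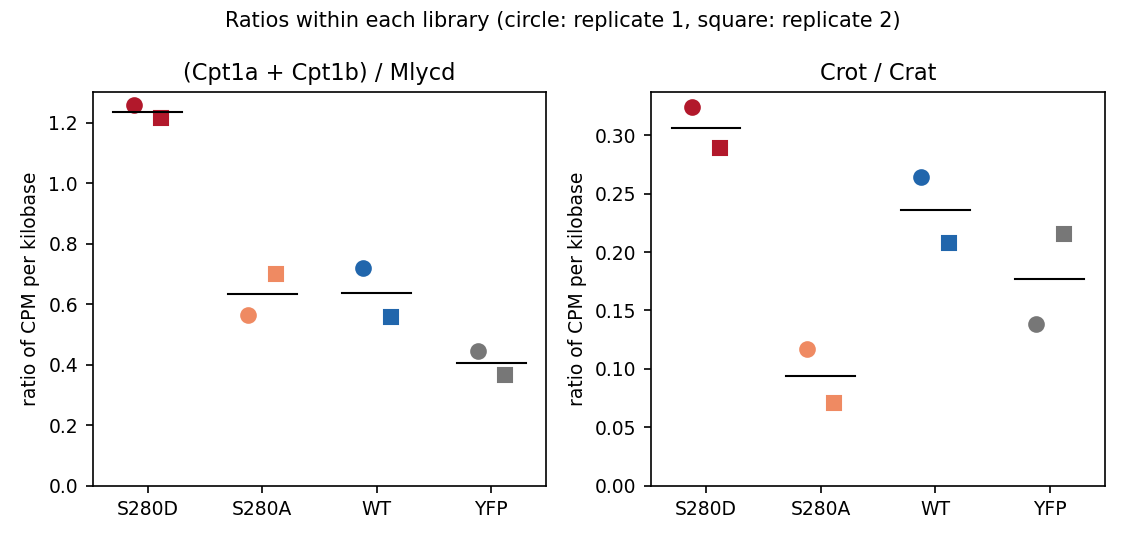
Ratios of CPM per kilobase within each library (y axes, from 0) by group (x axes): Cpt1a plus Cpt1b over Mlycd on the left, Crot over Crat on the right; circles are replicate 1, squares replicate 2 and lines the group mean. The S280D libraries are highest in both, at 1.26 and 1.22 on the left and 0.324 and 0.289 on the right.

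Counted by comparison, S280D against YFP called 5 of the 9 genes, 3 higher (Cpt1a, Cpt1b, Crot) and 2 lower (Slc25a20, Mlycd). Among all genes tested, 30.7% were called in that comparison, 17.1% higher and 13.7% lower. S280D against S280A also called 5, 2 higher (Cpt1b, Crot) and 3 lower (Crat, Slc25a20, Mlycd), beside 39.3% of all genes, 21.3% higher and 18.0% lower. Calls were thus frequent in the transcriptome at large in both comparisons, which share the S280D libraries, and whether the 9 genes were called more often was not tested.

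WT against YFP called 2 of the 9, Cpt1b higher and Cpt1c lower, beside 19.6% of all genes, 12.2% higher and 7.45% lower, a share close to this background. The all-gene count, 2437, was 163 without WT replicate 1 and 9 with lane in the model. S280A against WT called 1, Crot, which was lower, beside 26.0% of all genes, 10.1% higher and 15.9% lower; the all-gene count, 3226, was 7 without WT replicate 1 and 6 without S280A replicate 2. S280A against YFP called 0 of the 9 with edgeR and 0 with DESeq2, and 2 had an unadjusted p under 0.05, Cpt1a and Crat; of all genes 0.0403% were called, 0.0403% higher and 0.0% lower. S280D against WT likewise called 0 with each tool, with Cpt1a and Mlycd under an unadjusted p of 0.05, and 0.0403% of all genes were called, 0.0% higher and 0.0403% lower. A p that misses the threshold does not show that these groups were alike. The median log2 fold change of the 9 genes was -0.17 in S280D against YFP, -0.30 in S280D against S280A, -0.041 in WT against YFP, 0.20 in S280A against WT, -0.079 in S280A against YFP and 0.22 in S280D against WT, and that of all genes lay between -0.022 and 0.013 in each. In the authors' deposited table the adjusted p-values called 5 of the 9 genes in S280D against YFP, 4 in S280D against S280A, 2 in WT against YFP, 1 in S280A against WT, and 0 in each of the other 2 comparisons; the one that differed was Slc25a20 between the mutants.

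**Figure D4:**
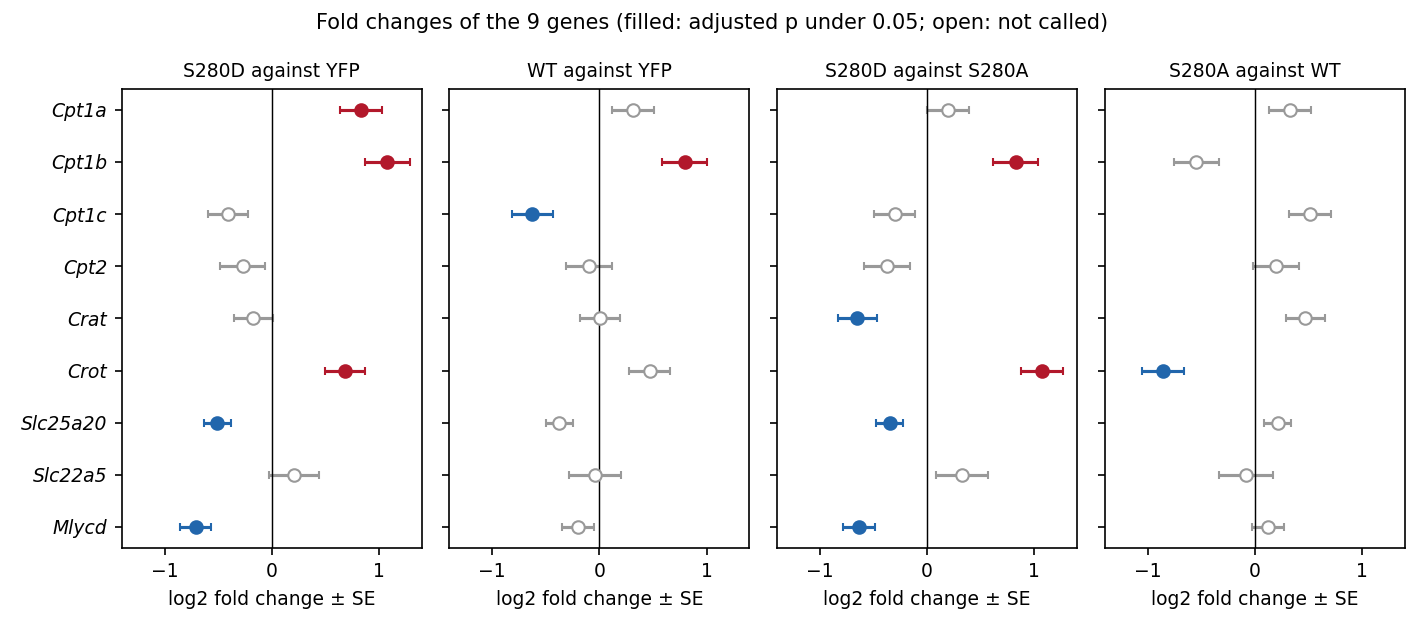
log2 fold change of each gene (x axis, with its SE as bars) in the 4 comparisons that called at least 1 of the 9; filled points had an adjusted p under 0.05, red for higher and blue for lower, and open points were not called. Cpt1b is higher in S280D against YFP (1.08) and against S280A (0.83), and Mlycd is lower in both (-0.71 and -0.63).

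Each mutant had 1 library in each lane, which allowed values within lanes. All 5 genes called in S280D against S280A kept their sign in both. In each of them the S280D and S280A libraries did not overlap, so that the sign was fixed in advance. Only the sizes could differ between lanes. Cpt1b differed by 0.88 on the log2 scale in lane 1 and 0.79 in lane 2, Crot by 1.41 and 0.79, Crat by -0.78 and -0.51, Slc25a20 by -0.43 and -0.26, and Mlycd by -0.57 and -0.69. Within lane 1, S280D against YFP gave 0.88 for Cpt1a, 1.02 for Cpt1b, 0.73 for Crot, -0.50 for Slc25a20 and -0.74 for Mlycd. For Crot in S280A against WT, lane 2 gave -0.62. These within-lane values rest on 1 library of a mutant each and carry no test.

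The genes called higher in S280D cells, against YFP or S280A, have a greater total exon length than those called lower. It was 4327 bases for Cpt1a, 3784 for Cpt1b and 2745 for Crot, against 2215 for Crat, 2055 for Mlycd and 1772 for Slc25a20. Of these, Cpt1a was called only against YFP and Crat only against S280A. The same held across the transcriptome: in S280D against S280A the median exon length was 3191 bases among the 2641 genes called higher, 1938 among the 2232 called lower and 2194 among the rest. With an offset for exon length, which moved the median of all genes to -0.13, the 5 genes kept their calls between the mutants, at 0.94 for Crot (edgeR adjusted p = 0.00264), 0.59 for Cpt1b (0.0355), -0.74 for Crat (0.00755), -0.70 for Mlycd (0.00369) and -0.37 for Slc25a20 (0.0364). Relative to that median they were at 1.07, 0.72, -0.61, -0.57 and -0.24. Cpt1a and Slc22a5, the longest, changed sign to -0.10 and -0.084, neither of them called, and stood at 0.030 and 0.047 relative to the median.

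**Figure D5:**
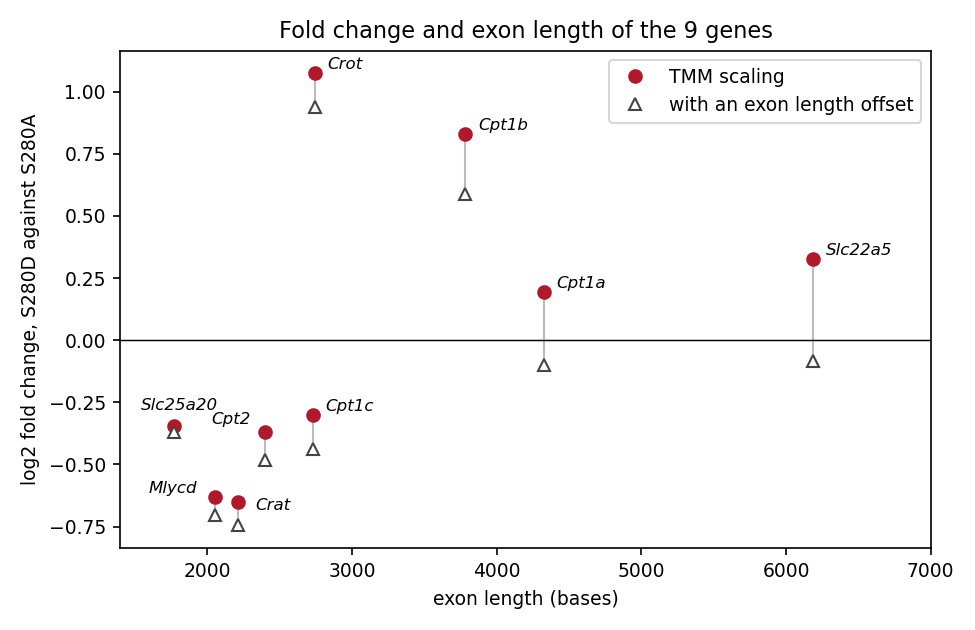
log2 fold change in S280D against S280A (y axis) by exon length in bases (x axis) for the 9 genes; red circles are the TMM-scaled fit and open triangles the fit with an exon length offset. Crot and Cpt1b stay above 0 and Crat, Mlycd and Slc25a20 below it in both, while Cpt1a and Slc22a5 cross it.

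Other genes of fatty acid use are read against the same background, 39.3% of all genes called in S280D against S280A and 30.7% in S280D against YFP. Of 15 mitochondrial β-oxidation genes, S280D against S280A called 2 higher and 2 lower, a smaller share than its background. S280D against YFP called 4 higher and 2 lower, a larger share than its background. Neither difference in share was tested. Etfdh, which passes electrons from acyl-CoA dehydrogenases to ubiquinone, was at 14.1 and 14.2 CPM in S280D against 9.97 and 5.72 CPM in S280A cells (log2 fold change 0.84 ± 0.24, edgeR adjusted p = 0.0171). Etfa, an electron carrier subunit that feeds it, stood at 0.68 ± 0.17 (adjusted p = 0.0122). Acads, the short-chain acyl-CoA dehydrogenase, was at 34.3 and 39.7 CPM in S280D against 48.6 and 71.8 CPM in S280A cells (-0.70 ± 0.18, adjusted p = 0.0116). WT cells were at 11.6 and 12.1 CPM for Etfdh, 39.9 and 33.5 CPM for Etfa, and 38.7 and 39.5 CPM for Acads. S280D against WT passed for none of them (edgeR adjusted p = 0.948, 0.967 and 0.961). Of 11 peroxisomal genes 1 was called between the mutants, Abcd3, a peroxisomal fatty acid importer, at 0.72 ± 0.17 (adjusted p = 0.00888), and 2 higher and 1 lower against YFP. For Abcd3, S280D against WT did not pass (0.14 ± 0.17, edgeR adjusted p = 0.948).

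Upstream of the shuttle, 7 genes of acyl-CoA synthesis and fatty acid uptake gave 2 higher and 2 lower between the mutants, and 2 higher and 1 lower in S280D against YFP. Acsl4, a long-chain acyl-CoA synthetase, was at 89.3 and 62.8 CPM in S280D against 30.7 and 23.8 CPM in S280A cells (1.48 ± 0.20, edgeR adjusted p = 0.00166). WT cells stood at 65.4 and 59.5 CPM, and S280D against WT did not pass (0.29 ± 0.19, adjusted p = 0.948). Between the mutants, Slc27a4, a fatty acid transport protein, was lower in S280D, at -0.61 ± 0.15 (adjusted p = 0.00985), and Fabp5 was called lower at or near 1 CPM and below, where few reads stand behind it. S280D against WT passed neither for Slc27a4 (-0.11 ± 0.15, adjusted p = 0.948) nor for Fabp5 (-2.25 ± 0.60, adjusted p = 0.506). Of 11 genes of malonyl-CoA synthesis and AMPK, the kinase that inhibits acetyl-CoA carboxylase, 3 were higher and 2 lower between the mutants, near the background of 39.3%, and 2 higher and 0 lower against YFP. Both catalytic subunits of AMPK were higher in S280D: Prkaa1 was at 84.8 and 79.6 CPM against 45.6 and 33.4 CPM in S280A cells (1.05 ± 0.16, adjusted p = 0.00185), and Prkaa2 at 11.4 and 8.51 CPM against 3.02 and 2.98 CPM (1.74 ± 0.26, adjusted p = 0.00185). Mcat, the mitochondrial malonyltransferase, was lower in S280D than in S280A cells, at -0.56 ± 0.18 (adjusted p = 0.0277). S280D against WT did not pass for Mcat (0.11 ± 0.18, adjusted p = 0.953).

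Of 2 tested genes for carnitine synthesis and other carriers, Aldh9a1, an enzyme of carnitine synthesis, was called lower between the mutants, at -0.43 ± 0.14 (edgeR adjusted p = 0.0322), and also against YFP. WT against YFP was called lower for Aldh9a1 too, at -0.57 ± 0.14 (adjusted p = 0.0204). Of 8 other PPAR target genes, 4 were higher and 0 lower in each of the 2 comparisons, beside 21.3% of all genes higher and 18.0% lower between the mutants, and 17.1% higher and 13.7% lower against YFP. Angptl4, a lipoprotein lipase inhibitor and PPAR target, was at 18.98 and 18.26 CPM in S280D against 7.72 and 4.91 CPM in S280A cells (1.55 ± 0.26, adjusted p = 0.00232). WT cells were at 7.60 and 9.65 CPM for Angptl4, and S280D against WT did not pass (1.11 ± 0.25, edgeR adjusted p = 0.2995). Between the mutants, Hsdl2, a peroxisomal dehydrogenase-like protein, stood at 0.82 ± 0.17 (adjusted p = 0.00444) and Acot2, a mitochondrial acyl-CoA thioesterase, at 0.57 ± 0.13 (adjusted p = 0.00621). Neither passed in S280D against WT (adjusted p = 0.948 for Hsdl2 and 0.850 for Acot2). Over these 8 genes the median log2 fold change between the mutants was 0.33, beside -0.30 for the 9 shuttle genes and -0.014 for all genes tested; the lists were chosen with results of these data known, and no difference between the medians was tested.

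Likeness of profiles was measured over the 8 libraries as the root mean square difference of log2 CPM after centring each gene. Each member was compared with 10067 other tested genes that had an assigned symbol and a mean of at least 1 CPM. Genes with provisional names or names of numbered copies were left out, so the ranks hold among assigned symbols only. The nearest genes were Msh3, Mpzl3 and Ccdc37 for Cpt1a, Rbm7, Kin and Csnk1g1 for Cpt1b, Ano8, Gas6 and Stc2 for Cpt1c, and Tmem219, Hspb6 and Hdac3 for Crat. They were Dopey1, Agtpbp1 and Uhrf1bp1l for Crot, Rhob, Flcn and Hspa5 for Slc25a20, and Dctpp1, Acd and Mcm2 for Mlycd. The distance to the nearest gene was 0.0439 for Slc25a20 and 0.152 for Cpt1a. Within the set, Slc25a20 and Mlycd were 0.176 apart and Cpt1b and Crot 0.268, while Crot and Crat were 0.697 apart. Many other genes were nearer. By nearness among the 10067 genes, Slc25a20 had rank 314 for Mlycd, and Mlycd rank 2212 for Slc25a20. Crot had rank 943 for Cpt1b, and Cpt1b rank 1446 for Crot. The median distance of all these genes was 0.278 from Slc25a20, 0.336 from Mlycd, 0.501 from Cpt1b and 0.505 from Crot.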

How the data were processed

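Per the labels' protocols, libraries of poly(A) RNA were paired-end, kept strand and were amplified by 15 PCR cycles. The authors deposited a table of raw counts per gene (total exon, unique exon and intron reads, no normalization) together with, per the file headers, signed fold changes and adjusted p-values of their own tests. The build is Rnor_6.0 per the submitters' processing notes; not given in the sources used here are aligner, annotation and whether counting used strand. The second WT library is numbered 3 in its description.

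Exon counts were filtered with filterByExpr and scaled by TMM, and edgeR 4.0.16 (R 4.3.3) fitted its quasi-likelihood test to all 8 libraries, with 6 two-sided contrasts and Benjamini-Hochberg adjustment over 12407 genes (threshold 0.05). The biological coefficient of variation was 0.133 with 4 residual degrees of freedom. SE is the log2 fold change over the root of F. Alternatives, DESeq2 1.42.0 among them, are given at the end. The fit was tested on simulated data. No libraries were duplicates; amplified reads carry no molecular identifiers and are no independent molecules. Start coordinates had 1 added, and promoters of GRCr8 were used for sequence only. The named genes are the 9 members, Ppara, up to 3 genes per list with the smallest adjusted p in S280D against S280A, the 3 nearest profiles per called member, and genes overlapping a member. Members and lists were chosen with earlier results of these data known.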

Additional observations from a re-analysis of the deposited data

How the results depend on the processing

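Each of the 54 gene and comparison pairs was repeated under 19 alternatives. Of 247 repeats of the 13 calls, 194 passed and 53 did not, no call changed sign, and no log2 fold change of a call moved by more than 1.5 times. Of 779 repeats of uncalled pairs, 11 passed. With 2 libraries a group, fold changes near 0 depend on single libraries, and as few as 50 reads stood behind a value of Slc22a5. The cause of each change was not tested, apart from the 1.5-fold test, which asks for a larger change by construction.

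The count of genes called was 2 in WT against YFP, 5 in S280D against YFP, 1 in S280A against WT and 5 in S280D against S280A. A test against a 1.5-fold change gave 0 in each of the 4. With lane in the model the counts were 0 in WT against YFP, 3 in S280D against YFP and 0 in S280A against WT. The all-gene counts with lane were 9, 1654 and 993, in that order. In S280A against WT, no filter on low counts gave 2, a fit on the 4 libraries compared gave 2, and the exon length offset gave 3. All-gene counts there were 3651, 3284 and 3695. Leaving out 1 library gave 0 to 3 in WT against YFP, 1 to 5 in S280D against YFP, 0 to 2 in S280A against WT and 1 to 5 in S280D against S280A. S280A against YFP and S280D against WT had 0 in each alternative run. The all-gene counts also moved when 1 library was left out. Whether the 9 genes lost calls more often than all genes was not tested. Slc25a20 in S280D against S280A was also lost without the filter (adjusted p = 0.154) and in the fit on 4 libraries (0.0926); Crat in S280A against WT passed in both (0.0256 and 0.0336).

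Replicate numbers were not shown to pair the libraries: the correlation of same-numbered deviations between groups ran from -0.173 to 0.205, and was over 0.1 for 3 of the 6 pairs of groups. With a replicate block, 2 genes were called in WT against YFP, 0 in S280A against YFP, 5 in S280D against YFP, 1 in S280A against WT, 0 in S280D against WT and 4 in S280D against S280A, where Slc25a20 was lost (adjusted p = 0.053).

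The sign changed in 20 repeats of uncalled pairs. With the exon length offset the log2 fold change was -0.10 for Cpt1a and -0.084 for Slc22a5 in S280D against S280A, -0.15 for Slc22a5 in S280D against YFP, 0.23 for Slc22a5 in S280A against WT, and -0.072 for Crat in WT against YFP. Thinning to the smallest library gave -0.012 for Crat in WT against YFP, and lane in the model 0.065 for Slc22a5 in WT against YFP. Leaving out 1 library, Cpt1c in S280D against WT ranged from -0.053 to 0.46, and Mlycd in S280A against YFP from -0.18 to 0.025. Cpt2 ranged from -0.28 to 0.092 in WT against YFP, -0.079 to 0.29 in S280A against YFP and -0.42 to 0.063 in S280D against WT. Crat ranged from -0.27 to 0.33 in WT against YFP and -0.44 to 0.15 in S280D against YFP. Slc22a5 ranged from -0.20 to 0.14 in WT against YFP, -0.28 to 0.055 in S280A against YFP and -0.16 to 0.024 in S280A against WT.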
